A study of Mus musculus with 8 samples.

Results

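The 10 genes described here are core components and direct outputs of the circadian clock: Arntl, Clock, Per1, Per2, Per3, Cry1, Nr1d1, Nr1d2, Dbp and Tef. They were listed by gene symbol out of 19938 genes measured in mouse heart on Affymetrix Mouse Gene ST arrays. No filter on their values was used, but the list was chosen with earlier results of these data known. The study set wild-type (WT) mice beside mice lacking MAFbx (KO), a ubiquitin ligase of striated muscle encoded by Fbxo32, after sham operation or after myocardial infarction (MI) made by permanent ligation of the left coronary artery. The infarcted hearts are labelled as day 1; the sham labels give no day, although the study's description places RNA extraction at 1 day after surgery. Each of the 4 groups (WT sham, KO sham, WT MI, KO MI) had 2 arrays, 8 in all. Which stretch of Fbxo32 was removed, and the age, sex and strain, are not in the labels. Nor do they say that replicate arrays stand for different mice, so that p-values may measure only technical spread. They also give no hour of surgery or of collection and no light schedule. Time of day can therefore not be told apart from genotype or operation for any value below, and its part was not tested.

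The clock is a loop of transcription factors that turns over about once a day in nearly every cell. The proteins of Arntl (BMAL1) and Clock pair and switch on genes through E-box elements, and among these are the Per and Cry genes, whose proteins return to the nucleus and block the pair. The same pair drives Nr1d1 and Nr1d2, which encode REV-ERB alpha and beta, repressors of Arntl, and it drives Dbp and Tef, which encode activators that bind D-box elements in output genes. In many tissues, the heart included, Arntl therefore peaks when Dbp, Nr1d1 and the Per genes are low, and the loop times cardiac metabolism and ion channel expression. Per1 and Per2 can also be switched on acutely by glucocorticoids and by cAMP signalling.

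The elements through which the loop closes were looked for in the 250 bases before each RefSeq transcription start (GRCm38.p6), on both strands. The table held 9 of the 10 genes, with 14 starts. The E-box CACGTG stood before 4 of the 14 starts, of Per1, Cry1 and Tef, and before 6.02% of all 32851 starts. Its variant CACGTT stood before 2 of the 14, of Cry1 and Nr1d1, against 3.85% of all starts. A D-box, TTATGTAA or TTACGTAA, stood before 1 of the 14, of Per3, against 0.931%. Neither TAGGTCA, the REV-ERB and ROR element (2.23% of all starts), nor TGACGTCA, the cAMP response element (1.55%), was found in the windows of these 9 genes, which says only that these letters were not there. The 4 windows below are shown because each carries an element of the loop, which is in capitals; AACGTG is CACGTT read on the other strand. They lie at chr11:69098699-69098948 on the plus strand for Per1, and on the minus strand at chr10:85185055-85185304 for Cry1, chr11:98775378-98775627 for Nr1d1 and chr4:151044666-151044915 for Per3.
Per1: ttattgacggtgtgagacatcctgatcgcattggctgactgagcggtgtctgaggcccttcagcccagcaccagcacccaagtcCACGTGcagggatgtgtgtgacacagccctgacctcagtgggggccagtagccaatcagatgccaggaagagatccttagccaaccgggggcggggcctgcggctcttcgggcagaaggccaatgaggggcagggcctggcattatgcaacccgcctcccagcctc
Cry1: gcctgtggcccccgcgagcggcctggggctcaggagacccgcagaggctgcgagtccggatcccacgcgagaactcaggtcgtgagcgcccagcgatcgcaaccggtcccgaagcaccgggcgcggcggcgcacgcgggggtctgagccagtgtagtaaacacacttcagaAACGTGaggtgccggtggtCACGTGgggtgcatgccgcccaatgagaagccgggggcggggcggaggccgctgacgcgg
Nr1d1: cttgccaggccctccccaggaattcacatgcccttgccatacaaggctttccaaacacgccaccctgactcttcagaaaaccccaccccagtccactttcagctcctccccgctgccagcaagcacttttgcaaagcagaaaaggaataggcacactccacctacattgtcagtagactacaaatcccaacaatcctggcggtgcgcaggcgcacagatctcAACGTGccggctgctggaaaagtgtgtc
Per3: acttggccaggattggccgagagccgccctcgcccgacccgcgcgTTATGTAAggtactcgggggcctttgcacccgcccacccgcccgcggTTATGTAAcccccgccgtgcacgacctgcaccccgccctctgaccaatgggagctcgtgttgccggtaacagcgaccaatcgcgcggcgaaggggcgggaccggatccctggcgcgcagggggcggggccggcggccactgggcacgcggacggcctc
The Per1 E-box began 166 bases before 1 of its 2 starts, and Cry1 carried the variant from 79 and the E-box from 60 bases before its start. In Nr1d1 the variant lay 28 bases before the start. Per3 held 2 copies of the D-box, from 205 and 158 bases before its start. A match of letters is a description and does not show binding.

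All values are log2 array signals, so that a difference of 1 is a doubling, and levels were not compared between genes because each has its own probe set. Fbxo32 read 8.214 to 8.794 on the WT arrays and 4.68 to 5.462 on the KO arrays, as labelled. The heart label held: the cardiomyocyte markers Actc1 (13.54 to 13.94) and Atp2a2 (13.72 to 13.93) were high on every array. The 12 cardiomyocyte markers summed to 16.74 to 16.83 in sham and 16.58 to 16.69 in infarcted hearts, while the 10 neutrophil markers went from 7.43 to 7.59 in sham to 10.76 to 12.54, and the 10 macrophage markers from 10.88 to 11.15 to 11.99 to 12.52. Infiltrating cells thus moved together with infarction, and their part in the clock values was not tested. In whole tissue, fewer cells of a type and less RNA per cell cannot be told apart.

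After infarction the activating arm of the loop was lower in both genotypes, while the other 8 genes gave a mixed picture. Arntl and Clock fell in WT and in KO hearts. In the main fit Per1 rose in WT and Dbp rose in KO. In WT hearts 3 of the 10 genes passed the test (limma, Benjamini-Hochberg adjusted p under 0.05 over all genes), 1 higher and 2 lower, where 28.1% of all genes passed. In KO hearts it was also 3 of 10, against 20.8%. The share of clock genes that passed was thus near that of genes at large. Their median difference was -0.02 in WT and 0.03 in KO, against 0.04 and 0.01 over all genes, but rises and falls cancel in it. The median size of the difference, without its sign, was 0.51 in WT and 0.43 in KO, against 0.26 and 0.2 over all genes.

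**Figure D1:**
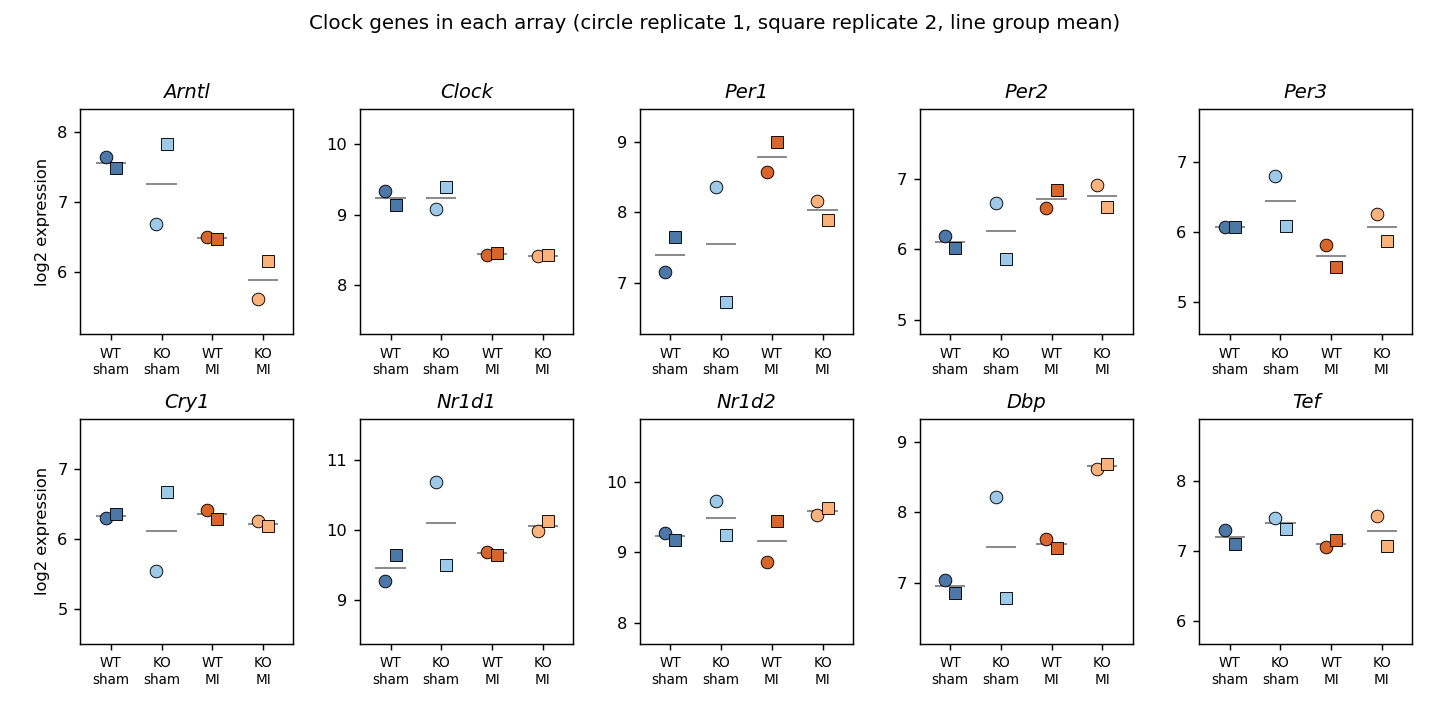
Log2 array signal of each of the 10 clock genes on the 8 arrays, by group; each point is 1 array and there are 2 per group. The infarcted arrays lie below every sham array for Arntl and Clock, and the KO sham arrays lie far apart for Arntl, Per1, Cry1, Nr1d1 and Dbp.

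Arntl encodes BMAL1, the partner without which the loop stops. It read 7.631 and 7.485 on the WT sham arrays, 6.68 and 7.822 on the KO sham arrays, 6.496 and 6.466 on the WT MI arrays, and 5.615 and 6.154 on the KO MI arrays. All 4 infarcted arrays were below all 4 sham arrays, the nearest pair being KO sham replicate 1 and WT MI replicate 1. Arntl fell by 1.08 on the log2 scale in WT (SE 0.31, 2.11-fold, limma adjusted p = 0.0278) and by 1.37 in KO (SE 0.31, 2.58-fold, limma adjusted p = 0.0124). The WT call was lost on leaving out any 1 of the WT arrays, with the single array left taken to vary as the other groups did. The WT difference itself ran from -1.15 without WT sham replicate 2 to -1 without WT sham replicate 1 in these fits. The KO call was lost without KO MI replicate 1 (-1.10, limma adjusted p = 0.106), and the KO difference ranged from -1.94 without KO sham replicate 1 to -0.80 without KO sham replicate 2.

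Clock encodes the other member of the activating pair, a histone acetyltransferase. Its levels were 9.339 and 9.138 in WT sham, 9.08 and 9.386 in KO sham, 8.427 and 8.458 in WT MI and 8.414 and 8.421 in KO MI. The infarcted arrays lay within a narrow band and again below every sham array. Clock fell by 0.80 in WT (SE 0.14, 1.74-fold, limma adjusted p = 0.00224) and by 0.82 in KO (SE 0.14, 1.76-fold, limma adjusted p = 0.00296). It passed in both genotypes under all 19 alternatives tried, with limma adjusted p from 0.000608 to 0.0296 in WT and 0.000802 to 0.0266 in KO. In an exact two-sided permutation test of the 4 infarcted against the 4 sham arrays, Arntl and Clock both gave p = 0.0286, the smallest 70 assignments allow, which 35.1% of all genes also reached (adjusted 0.0813).

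Among the Period genes, whose proteins block BMAL1 and CLOCK, Per1 was the most variable. It read 7.143 and 7.652 in WT sham, 8.357 and 6.729 in KO sham, 8.578 and 9.004 in WT MI and 8.161 and 7.895 in KO MI. The WT groups did not overlap, whereas both KO MI arrays lay between the KO sham arrays. Per1 rose by 1.39 in WT (SE 0.42, 2.63-fold, limma adjusted p = 0.0338); in KO the difference was 0.49 (95% interval -0.46 to 1.43, limma adjusted p = 0.50). The WT call was lost with a robust prior (0.0571) and without WT sham replicate 1 (0.172) or 2 (0.0562), WT MI replicate 1 (0.0639) or 2 (0.18), or either KO MI array (0.0534), all limma adjusted p. In KO, leaving out KO sham replicate 1 gave 1.30 (limma adjusted p = 0.0108, 0.0091 to 0.762 over its alternatives), and leaving out KO sham replicate 2 gave -0.33.

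Per2, the Period gene with the strongest clock phenotype on loss, read 6.191 and 6.016 in WT sham, 6.661 and 5.868 in KO sham, 6.584 and 6.849 in WT MI and 6.922 and 6.599 in KO MI. The differences were 0.61 in WT (95% interval 0.08 to 1.14, limma adjusted p = 0.0838) and 0.50 in KO (-0.03 to 1.03, limma adjusted p = 0.186), so that neither passed. The WT difference passed without either KO sham array (0.0173) and the KO difference without KO sham replicate 1 (0.89, 0.0144), both limma adjusted p. Per3, a Period gene that the loop can do without, read 6.079 and 6.073 in WT sham, 6.794 and 6.082 in KO sham, 5.817 and 5.507 in WT MI and 6.263 and 5.872 in KO MI. Its differences of -0.41 and -0.37 did not pass (limma adjusted p = 0.214 in WT and 0.317 in KO), and the KO value was -0.73 without KO sham replicate 2 (limma adjusted p = 0.0384) and -0.01 without replicate 1.

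Cry1, the strongest repressor of the loop, read 6.296 and 6.363 in WT sham, 5.551 and 6.674 in KO sham, 6.417 and 6.287 in WT MI and 6.254 and 6.184 in KO MI. Apart from the KO sham pair, its arrays spanned only a small range. The differences were 0.02 in WT (95% interval -0.61 to 0.66) and 0.11 in KO (-0.53 to 0.74), and neither passed (limma adjusted p = 0.963 and 0.852). In KO the direction turned on the sham array kept: 0.67 without KO sham replicate 2 (limma adjusted p = 0.0115) and -0.46 without replicate 1.

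Nr1d1 encodes REV-ERB alpha, the haem-binding repressor of Arntl. It read 9.276 and 9.651 in WT sham, 10.69 and 9.507 in KO sham, 9.693 and 9.652 in WT MI and 9.984 and 10.13 in KO MI. Its highest array was thus a sham array, KO replicate 1. The differences were 0.21 in WT (95% interval -0.48 to 0.90) and -0.04 in KO (-0.73 to 0.65), and neither passed (limma adjusted p = 0.662 and 0.952). In KO it was -0.63 without KO sham replicate 2 (limma adjusted p = 0.0416) and 0.55 without replicate 1. Nr1d2, the REV-ERB beta gene, read 9.274 and 9.181 in WT sham, 9.732 and 9.25 in KO sham, 8.87 and 9.445 in WT MI and 9.535 and 9.633 in KO MI. Sham and infarcted arrays overlapped in both genotypes, and the differences were -0.07 (-0.54 to 0.39) in WT and 0.09 (-0.37 to 0.56) in KO.

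Dbp, a direct E-box output whose level swings widely over the day, read 7.043 and 6.848 in WT sham, 8.223 and 6.776 in KO sham, 7.617 and 7.486 in WT MI and 8.621 and 8.684 in KO MI. The KO MI arrays were the highest of the 8, and KO sham replicate 1 came next. Dbp rose by 1.15 in KO (SE 0.35, 2.22-fold, limma adjusted p = 0.0454), and the WT difference of 0.61 (95% interval -0.19 to 1.40) did not pass (limma adjusted p = 0.241). The KO call was lost in 10 of 19 alternatives (limma adjusted p 0.0537 to 0.181), among them without KO sham replicate 2 (0.43, 0.0792), KO MI replicate 1 (0.152) or 2 (0.181), any WT sham array (0.0596) or any WT MI array (0.0661). Without KO sham replicate 1 the KO difference was 1.88. The WT difference stayed at 0.61 without either KO sham array, since neither enters it, and only its estimate of spread changed. With the compared groups alone the WT difference passed (limma adjusted p = 0.0145) and the KO difference did not (0.0833). The main fit shares 1 estimate of spread over the groups. The KO sham pair had an SD of 1.02, against 0.14 in WT sham, 0.09 in WT MI and 0.04 in KO MI. Tef, a relative of Dbp, read 7.296 and 7.101 in WT sham, 7.475 and 7.315 in KO sham, 7.058 and 7.152 in WT MI and 7.502 and 7.072 in KO MI, with differences of -0.09 (-0.46 to 0.27) and -0.11 (-0.47 to 0.25).

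**Figure D2:**
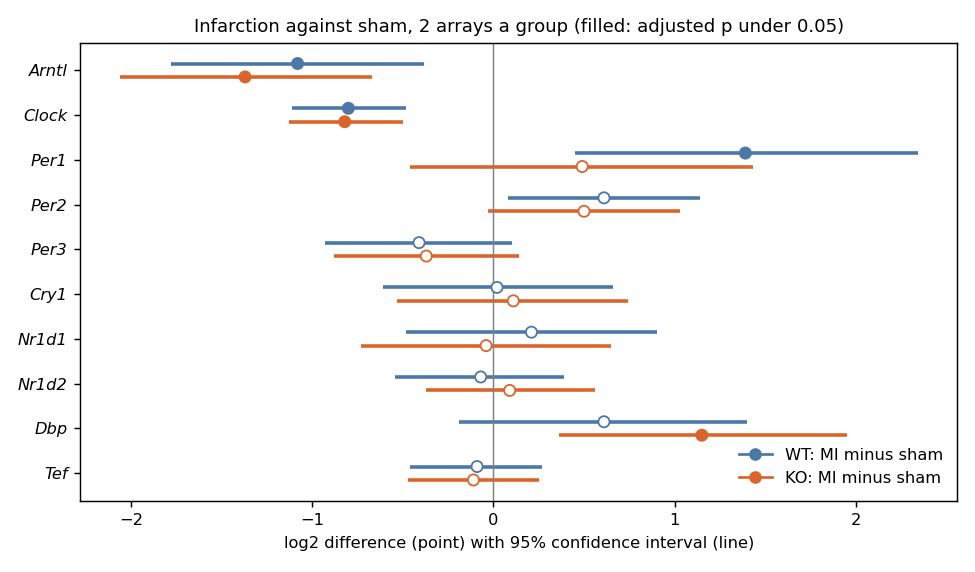
Difference of infarcted minus sham log2 signal for the 10 clock genes in WT and KO hearts, with 95% intervals from limma. Arntl and Clock lie below 0 in both genotypes, Per1 lies above 0 in WT and Dbp in KO; other intervals include 0 except that of Per2 in WT.

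Counted by array, 7 of the 10 genes had infarcted arrays all on one side of the sham arrays in WT, where 66.6% of all genes did, and 3 of 10 in KO, against 55.6%. With the infarction difference averaged over genotypes, 5 of 10 passed, against 36.5% of all genes: Arntl (-1.22, limma adjusted p = 0.00175) and Clock (-0.81, 0.000165) fell, and Per1 (0.94, 0.033), Per2 (0.55, 0.0268) and Dbp (0.88, 0.0203) rose. In 2 of these, Arntl and Clock, the 4 infarcted and 4 sham arrays did not overlap, against 35.1% of all genes. The exact permutation test gave p = 0.0857 for Per1 and for Per2 (adjusted 0.181 each) and p = 0.114 for Dbp (adjusted 0.223). The averaged calls of Per1, Per2 and Dbp were each lost on leaving out single arrays: Per1 without WT sham replicate 1 (0.0998), WT MI replicate 2 (0.11), KO MI replicate 1 (0.101) or 2 (0.067); Per2 without WT sham replicate 2 (0.0826), KO sham replicate 2 (0.0522), WT MI replicate 2 (0.0919) or KO MI replicate 1 (0.0992). Dbp lost its call without WT sham replicate 2 or WT MI replicate 1 (0.0585), KO MI replicate 1 (0.0543) or 2 (0.064), all limma adjusted p. Per3 passed in the fit with a replicate block (-0.39, limma adjusted p = 0.0345) and without KO sham replicate 2 (-0.57, 0.00943), which also added Cry1 (0.35, 0.0155); leaving out KO sham replicate 1 added Nr1d1 (0.38, 0.0308).

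No clock gene passed between genotypes. In sham hearts 0 of 10 passed by limma, and 0 of 10 had an unadjusted p under 0.05; 0.0301% of all genes passed and 1017 had such a p. The arrays of 2 genes, Per3 and Tef, did not overlap, against 32.7% of all genes. In infarcted hearts 0 of 10 passed by limma, against 0.0702%, and 1, Dbp, had an unadjusted p under 0.05 (2337 of all genes). All but Per2 and Tef, 8 of 10, had KO MI arrays on one side of the WT MI arrays, against 44.4% of all genes. Dbp was 1.10 higher in KO (SE 0.35, 95% interval 0.31 to 1.89, limma adjusted p = 0.287); that p was 0.0463 without either KO sham array and up to 0.724 over its alternatives. In sham hearts Dbp differed by 0.55, by 1.28 without KO sham replicate 2 and by -0.17 without KO sham replicate 1, so that its sign turned on the array kept. No neutrophil marker passed between genotypes (limma), but their sums did not overlap in the same infarcted hearts, at 11.82 and 12.54 in WT and 10.76 and 11.28 in KO. The fibroblast sums (13.03 and 12.95 in WT, 13.25 on both KO arrays), the endothelial sums (13.17 and 13.10, 12.95 and 12.85) and the cardiomyocyte sums (16.62 and 16.58, 16.69 and 16.66) did not overlap either. The part of these cell types in the Dbp difference was not tested.

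The infarction difference itself was compared between genotypes in the same fit. By limma 0 of 10 clock genes passed and 0 had an unadjusted p under 0.05; 0% of all genes passed and 1637 had such a p. The estimates ran from -0.91 for Per1 (95% interval -2.24 to 0.43) to 0.55 for Dbp (-0.57 to 1.67), so that the call of Per1 in WT alone and of Dbp in KO alone is not shown to be a difference between genotypes. For Clock the difference was -0.02 (-0.46 to 0.42).

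The arrays of the KO sham pair lay far apart for these genes. The median size of the difference between its arrays was 0.96 over the 10 clock genes and 0.19 over all genes, and 7 of 10 (Arntl, Per1, Per2, Per3, Cry1, Nr1d1 and Dbp) exceeded 0.50, the 90th percentile of all genes. In the other groups the median over the clock genes was 0.18 in WT sham, 0.13 in WT MI and 0.21 in KO MI, and 2, 1 and 3 genes passed that group's 90th percentile. Replicate 2 minus replicate 1 was 1.14 for Arntl, 1.12 for Cry1 and 0.31 for Clock, and -1.63 for Per1, -1.45 for Dbp, -1.18 for Nr1d1, -0.79 for Per2, -0.71 for Per3, -0.48 for Nr1d2 and -0.16 for Tef. Against the WT sham mean, replicate 1 was low for Arntl (-0.88) and Cry1 (-0.78). It was high for Dbp (1.28), Nr1d1 (1.23), Per1 (0.96), Per3 (0.72) and Per2 (0.56). Replicate 2 lay nearer that mean for each of these. It was at 0.26 for Arntl, 0.34 for Cry1, -0.17 for Dbp, 0.04 for Nr1d1, -0.67 for Per1, 0.01 for Per3 and -0.24 for Per2. In 6 of the 10 genes the KO sham arrays lay on opposite sides of both WT sham arrays, against 27.7% of all genes. With single arrays there is no test of this pattern.

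**Figure D3:**
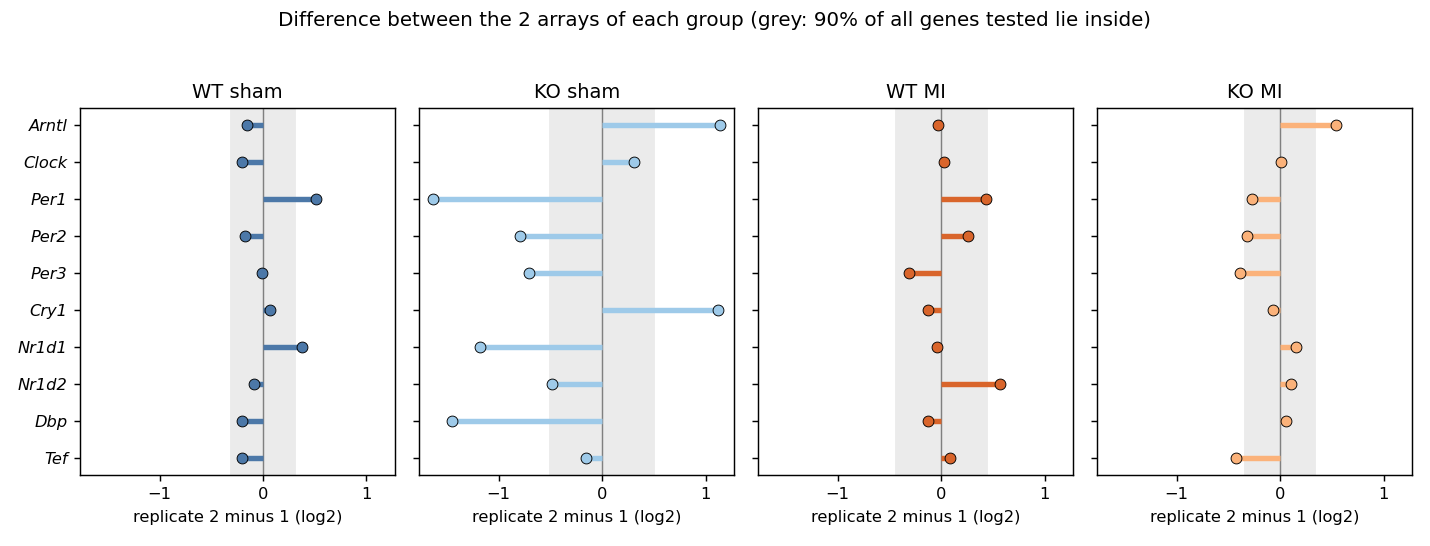
Difference between the 2 arrays of each group (replicate 2 minus replicate 1, log2) for the 10 clock genes; grey bands hold 90% of all genes. The KO sham differences reach from -1.63 for Per1 to 1.14 for Arntl, while the other groups stay closer to 0.

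Other genes differed between these arrays too. Output genes of the clock had a median difference of 0.51 in size, with 5 of 10 past the 90th percentile of all genes, and the repressors 0.39, with 4 of 9. All 10 macrophage markers were higher in replicate 2 (median size 0.35; Ccr2 0.63, Itgam 0.60), while the endothelial markers Egfl7 (-0.96) and Cldn5 (0.88) differed in opposite directions; these 4 markers were chosen after their values were seen. The part of other cell types in the clock values was not tested. Replicates 1 and 2 gave 16.74 and 16.80 for the cardiomyocyte sum, 7.57 and 7.48 for neutrophils, 10.88 and 11.15 for macrophages, 13.43 and 13.61 for fibroblasts, 13.13 and 13.24 for endothelial cells and 12.58 and 12.80 for smooth muscle. Over all genes they correlated at 0.991, against 0.993 to 0.996 in the other groups. Nfil3, which encodes the repressor that competes with DBP at D-boxes, differed by 1.34 between them, larger than 99.6% of genes, with the sign of Arntl.

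Other clock genes, from lists chosen with earlier results of these data known, were tested in the same fit. Beside each list stands the share of all genes: 12.3% rose and 15.8% fell in WT, 28.1% in all, and 10.5% rose and 10.3% fell in KO, 20.8% in all. Of 9 measured repressors 4 rose in WT and 3 in KO, and none fell; none of them differed between genotypes (limma). Bhlhe40 (DEC1), which competes with the pair at E-boxes, rose by 1.69 in WT (SE 0.20, limma adjusted p = 0.000239) and 1.82 in KO (0.000267), from 6.821 to 7.393 in sham to 8.624 to 8.988 after infarction. Ciart, a repressor recruited by the same pair, rose by 1.67 (SE 0.24, limma adjusted p = 0.000745) and 1.82 (0.000776), and Bhlhe41 (DEC2) by 0.73 (0.00297) and 0.99 (0.00086). Nfil3 rose in WT (1.24, limma adjusted p = 0.0244), and in KO the value was 1.01 (0.0693). Cry2 did not pass (0.04 and 0.19).

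Of 8 measured activators and their regulators, 0 rose and 2 fell in WT, and 1 rose and 3 fell in KO, against 28.1% and 20.8% of all genes in either direction. Rorb, a nuclear receptor that activates Arntl, fell by 0.80 in WT (limma adjusted p = 0.00121) and by 0.47 in KO (0.0257), and Rora, its relative, fell by 0.42 in WT (0.0382) and gave -0.33 in KO (0.118). Wdr5, a histone methyltransferase subunit found with PER proteins, rose by 0.67 in KO (0.00932), and Ep300, an acetyltransferase coactivator of the pair, fell by 0.55 (0.0134). Of 11 kinases and ubiquitin ligases acting on PER and CRY, 1 rose and 2 fell in WT and 1 fell in KO, shares near or below those of all genes (28.1% and 20.8%). Prkaa2, the AMP kinase subunit that marks CRY1 for loss, fell by 1.06 in WT (limma adjusted p = 0.00142) and 0.58 in KO (0.0394), Btrc fell by 0.58 in WT (0.00861) and Csnk1d, a PER kinase, rose by 0.49 in WT (0.0181).

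Of 10 output genes 3 rose and 2 fell in WT, against 28.1% of all genes, and 1 rose and 2 fell in KO, near the 20.8% of all genes. Hlf, the third D-box activator beside Dbp and Tef, fell by 1.12 in WT (SE 0.14, limma adjusted p = 0.00028) and by 0.68 in KO (0.00652); its sham arrays read 7.281 to 7.496 and its infarcted arrays 6.258 to 6.804, while Dbp was higher on average and Tef did not pass. Kcnip2, a potassium channel subunit whose rhythm has been described in the heart, fell by 1.87 in WT (limma adjusted p = 2.92e-05) and by 1.5 in KO (0.000171). Tspan4 rose by 2.40 in both (1.76e-05 and 2.63e-05). Between genotypes none of these lists had a member that passed, in sham or in infarcted hearts.

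**Figure D4:**
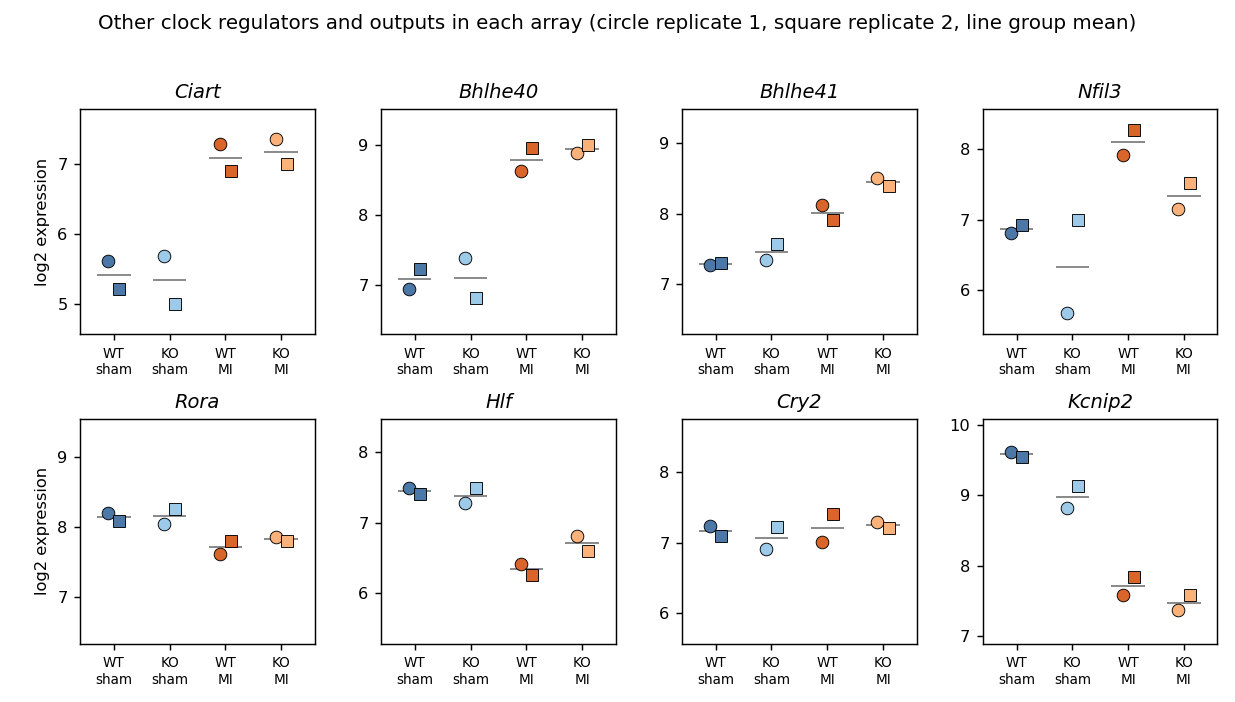
Log2 array signal of other clock genes on the 8 arrays, by group, with 1 point per array. Bhlhe40 and Ciart are higher and Hlf lower on all infarcted arrays than on any sham array.

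By likeness over the 8 arrays, among 9969 genes at or above the median level, Arntl was closest to Sh3bp5 and Hadh (Pearson r = 0.984 each), Rhbdl3 (0.980), Wdr45 (0.977) and Sucla2 (0.974). Nr1d1 was closest to Rpl28 (0.982), Tcap (0.947) and Pabpn1 (0.944). Per1 was closest to Col5a3 (0.980), Taf4b (0.967) and Rasa2 (0.963), and Dbp to Scx (0.953), Prpf40b (0.945) and Appl1 (0.941). These are descriptions with no p, since the arrays fall into sham and infarcted sets and many genes share that split. Nr1d1 did not follow the split (averaged infarction difference 0.08), and its highest array was KO sham replicate 1 (10.69).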

How the data were processed

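Hearts of 4 groups (WT sham, KO sham, WT MI, KO MI; 2 arrays each) were measured on 1-colour arrays. The deposited values are log2 signals that the authors summarised with Affymetrix Expression Console and RMA, per the submitters' processing notes; versions and annotation build: not given in the sources used here. RMA gives all arrays one distribution of signals, so a difference is relative to the other genes of its array. The array number limits the precision. Of 35556 probe sets, 21789 carried 1 gene; for the 999 genes with several the probe set with the highest mean was kept, leaving 19938 genes. limma 3.58.1 in R 4.3.3 (lmFit, eBayes) fitted the 4 groups without a block, with Benjamini-Hochberg adjustment over all genes and a threshold of 0.05; the script was tested on simulated data. Genes with shared or unlisted probe sets were not analysed here. Named are the 10 clock genes, 9 fixed clock genes where measured, from every list at most 3 genes past the threshold per contrast, by smallest p, 2 markers of a cell type, and for 4 genes the most alike genes. Members and lists were chosen with earlier results of these data known. Same-numbered arrays of different groups correlated at -0.19 to 0.16 in their deviations. With 2 arrays a group this cannot show whether the numbers pair the samples, and the labels state no pairing. Alternatives changed the scaling, filter, variance prior, array weights, block and samples.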

Additional observations from a re-analysis of the deposited data

How the results depend on the processing

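Of 1120 values of the 60 single-gene differences under alternatives, 994 kept direction and side of the threshold, 35 lost a call, 22 gained one and 69 changed sign, 1 of them past the threshold; 30 results had a sign change, and their causes were not tested. The number of clock genes called after infarction in WT was 3, 5 with the compared groups alone and 1 to 5 on leaving out 1 array; in KO it was 3, 6 with both KO sham replicate 1 and WT MI replicate 2 left out, and 1 to 5 on leaving out 1 array. Averaged over genotypes it was 5, and 2 to 6 on leaving out 1 array; between genotypes it was 0, and 0 to 1 in sham and in infarcted hearts. With the replicate block, a paired fit, it stayed at 3 in WT and 3 in KO and was 6 averaged, Per3 being added (-0.39).

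All genes called after infarction went from 5609 in WT to 3457 and 3462 without WT sham replicates 1 and 2, and from 4142 in KO to 2305 and 2246 without KO MI replicates 1 and 2. KO against WT in sham hearts went from 6 to 12 with an intensity trend, 3 with the groups alone and 3 to 34 on leaving out 1 array. In infarcted hearts it went from 14 to 63 with the trend, 26 with array weights, 23 without the lowest 33.3% of genes, 2 with the groups alone, 5 with the replicate block and 3 with both arrays left out, and was 2 to 8 on leaving out 1 array where it moved. The difference of responses went from 0 to 4 with the trend, 1 with cyclic loess and 3 without WT sham replicate 1.

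With both arrays left out the sign changed for KO against WT in sham hearts in Arntl (0.26), Clock (0.15), Per1 (-0.67), Per2 (-0.24), Cry1 (0.34) and Dbp (-0.17). It changed for the difference of responses in Per1 (0.12), Per2 (0.41), Cry1 (-0.54), Nr1d1 (0.32) and Tef (0.11), for KO infarction in Cry1 (-0.46, limma adjusted p = 0.0397) and Nr1d1 (0.55), and averaged in Cry1 (-0.18) and Nr1d2 (-0.01). Cyclic loess turned Clock in KO sham (0.03), Per2 between genotypes in infarcted hearts (-0.001), Nr1d1 in KO infarction (0.0045), and Nr1d2 (0.10) and Tef (0.02) in WT infarction. Median centring turned Cry1 in WT infarction (-0.01) and Nr1d2 averaged (-0.02). Leaving out 1 array turned the sign of others, given as lowest to highest value over the arrays. For WT infarction these were Cry1 (-0.04 to 0.09), Nr1d2 (-0.36 to 0.22) and Tef (-0.19 to 0.0039). For KO infarction these were Per1 (-0.33 to 1.30), Cry1 (-0.46 to 0.67), Nr1d1 (-0.63 to 0.55), Nr1d2 (-0.15 to 0.33) and Tef (-0.32 to 0.11). For KO against WT in sham hearts these were Arntl (-0.88 to 0.26), Clock (-0.16 to 0.15), Per1 (-0.67 to 0.96), Per2 (-0.24 to 0.56), Cry1 (-0.78 to 0.34) and Dbp (-0.17 to 1.28). For KO against WT in infarcted hearts these were Per2 (-0.12 to 0.21) and Tef (-0.03 to 0.40). For the difference of responses these were Arntl (-0.86 to 0.28), Clock (-0.17 to 0.13), Per2 (-0.51 to 0.28), Per3 (-0.31 to 0.40), Cry1 (-0.48 to 0.65), Nr1d1 (-0.84 to 0.34), Nr1d2 (-0.12 to 0.45), Dbp (-0.18 to 1.27) and Tef (-0.23 to 0.20). For the averaged infarction difference these were Cry1 (-0.22 to 0.35), Nr1d1 (-0.21 to 0.38), Nr1d2 (-0.13 to 0.15) and Tef (-0.21 to 0.0065). The number of arrays limits all of these.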

Other observations

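Glucocorticoids, cAMP and body temperature can set or shift Per1 and Per2, and lists of genes that respond to them were counted in the same hearts. Over all genes, 12.3% rose and 15.8% fell in WT after infarction, and 10.5% rose and 10.3% fell in KO. Adjusted p-values are from limma. Of 12 glucocorticoid-responsive genes 7 rose and 3 fell in WT, and 4 rose and 3 fell in KO. Mt2, a metallothionein, rose by 4.57 in WT (limma adjusted p = 1.2e-07) and 3.66 in KO (8.77e-07). Fkbp5, a chaperone induced by the glucocorticoid receptor, rose by 2.64 (1.51e-06) and 1.64 (3.92e-05). Other members had lower means after infarction in WT and in KO. These were Tsc22d3 (8.84 to 8.23 and 8.75 to 8.09), Klf9 (9.62 to 8.93 and 9.64 to 8.76) and Dusp1 (10.78 to 10.27 and 10.71 to 9.93). Of 10 genes of the cAMP response 3 rose and 1 fell in WT, and 2 rose and 1 fell in KO, so that the share that passed was not far from the 28.1% and 20.8% of all genes. Among them Junb rose by 1.28 (4.71e-05) and 0.93 (0.000508), Fos by 1.75 (0.000253) and 0.96 (0.0102), and Pde4d, a phosphodiesterase, fell by 0.99 (0.000379) and 0.68 (0.00496). Of 8 measured genes of the body temperature response 5 rose in WT and 4 in KO, and none fell. The list holds cold-induced genes (Cirbp, Rbm3) beside heat-shock genes, so these counts give no direction of temperature. The Rbm3 mean went from 9.93 to 11.62 in WT and from 9.9 to 11.12 in KO. That of Cirbp went from 7.93 to 8.27 and from 8.22 to 8.03. Hspb1 rose by 2.54 (2.16e-06) and 2.94 (2.13e-06), and Hspa1a, whose near-identical copy Hspa1b can share its signal, by 3.12 (2.62e-05) and 2.01 (0.00054). Their part in the Per1 and Per2 values was not tested.

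Between the KO sham arrays, where the clock genes differed most, the median size of the difference was 0.16 for the glucocorticoid list, 0.11 for the cAMP list and 0.26 for the temperature list, against 0.96 for the clock genes and 0.19 for all genes. Single members differed more: Angptl4 by 1.64, Cebpd by -1.24, Nr4a3 by -0.91, Hspa1a by -0.86 and Sik1 by -0.75 (replicate 2 minus replicate 1), chosen after their values were seen. Past the 90th percentile of all genes were 2 of 12 glucocorticoid, 3 of 10 cAMP and 1 of 8 temperature genes. No list had a member that passed between genotypes.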
